A study of Mus musculus with 4 samples.

Results

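The 33 genes described here cover fatty acid synthesis, storage and lipolysis. They were taken by symbol, and all 33 were found among the 22700 rows of each of the 4 expression files. All 33 also reached the level minimum of 20 normalized read counts in at least 1 library, as did 13642 rows in all. They are treated in 5 steps: synthesis with its regulator Srebf1 (7 genes), elongation and desaturation (9), activation and esterification (9), lipolysis (5), and binding and regulation (3).

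RNA was measured in bone marrow cells of male mice aged 12 weeks, cultured for 7 to 8 days either with M-CSF at 10 ng/ml, the factor that drives macrophage growth, or with GM-CSF at 20 ng/ml, which yields macrophage-like and dendritic-like cells. The donors carried the leprdb allele of the leptin receptor on the BKS background: db/db mice (BKS.Cg-m+/+leprdb/J), labelled type 2 diabetic, and their db/+ littermates (BKS.Cg-m+/+leprdb+/J) as controls. The allele is carried throughout the body, so the marrow came from diabetic or control animals and the cultured cells held the allele too. Culture type and genotype were crossed, which gave 4 groups of 1 library each: M-CSF db/+, M-CSF db/db, GM-CSF db/+ and GM-CSF db/db. Ribosomal RNA was removed from total RNA, and read pairs were sequenced on an Illumina HiSeq instrument. No group had a second library, and the labels do not tell marrow of 1 mouse from pooled marrow. No value below therefore has a replicate error.

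Cells build fatty acids in the cytosol from acetyl-CoA: ATP citrate lyase and acetyl-CoA synthetase supply it, acetyl-CoA carboxylase makes malonyl-CoA, and fatty acid synthase assembles palmitate. Elongases and desaturases then lengthen and unsaturate the chain, acyl-CoA synthetases activate it, and acyltransferases, lipins and diacylglycerol acyltransferases build triglyceride, which neutral lipases in the cytosol and acid lipase in the lysosome break down again. In macrophages these steps feed membrane growth, lipid mediators and lipid droplets, and lipoprotein lipase, CD36 and fatty acid binding proteins handle the fat taken up from outside.

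Recovered depth was 25603389 reads in the M-CSF db/+ library, 27590733 in M-CSF db/db, 27216098 in GM-CSF db/+ and 28622697 in GM-CSF db/db. The macrophage genes Csf1r and Emr1 were present in every library and lower in GM-CSF. Csf1r was at 120627 and 105159 normalized counts in M-CSF and at 33549.6 and 33103.3 in GM-CSF, and Emr1 at 98661.5 and 97863.4 and then at 11230.3 and 11449.7. Of 9 macrophage markers in the files, limma called 5 lower and 2 higher (Cd68 and Lyz2) in GM-CSF at an adjusted p under 0.05. The integrin gene Itgax, a marker of GM-CSF cultures, was at 775 and 921 in M-CSF and reached 56042 and 56259 in GM-CSF. Of the 10 genes of its list, 8 were called higher and 2 lower: Flt3, from 53.3 and 76.7 to 0 in both GM-CSF libraries, and Ciita, from 2629.9 and 1740.1 to 951 and 1059.7. None of 10 adipocyte marker genes reached 20 normalized counts in any library. Their summed level was 31.4 in M-CSF db/+, 25.2 in M-CSF db/db, 14.7 in GM-CSF db/+ and 10.9 in GM-CSF db/db, with Adipoq at most 12.2, Plin1 at most 5.7 and Cfd at most 4.8. The summed level of 12 fibroblast and stromal genes was 26645.6 in M-CSF db/+, 73504.6 in M-CSF db/db, 301.8 in GM-CSF db/+ and 335.7 in GM-CSF db/db. The summed level of 7 neutrophil genes was 15645.5 and 16427 in the M-CSF libraries and 784 and 908 in the GM-CSF libraries. In bulk RNA of this kind, fewer cells of a type and less RNA per cell cannot be told apart.

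**Figure D1:**
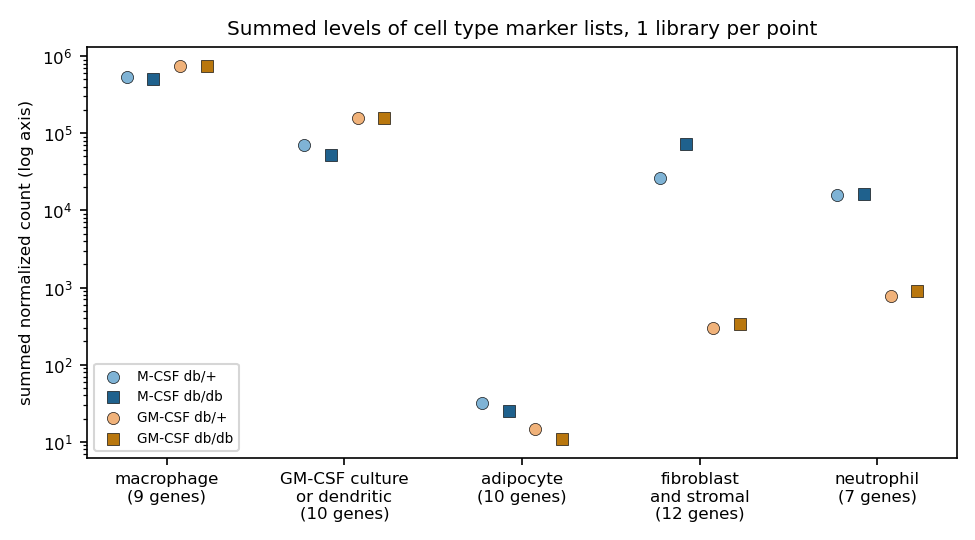
Summed normalized read count of each marker list on a log axis, 1 point per library. The adipocyte list stays between 10.9 and 31.4 in all 4 libraries, and the fibroblast and stromal list is highest in the M-CSF db/db library at 73504.6.

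Promoter windows from RefSeq, 250 bases before to 50 after an annotated start on GRCm38.p6, matched 25 of the 33 genes in 37 windows. The genes with no entry in that table were Dgat1, Dgat2, Fabp4, Fabp5, Fads1, Lpl, Scd1 and Scd2. The windows below are those of 3 genes that rose most clearly in GM-CSF culture or lead the synthesis step, of Acly, which feeds that step, and of Lpin2, the gene with the largest fall. Each is written along its own strand, and capitals mark the motifs searched on both strands: the sterol regulatory element core CACCCCAC, the E-box CACGTG, the CCAAT box CCAAT, the GC box GGGCGG and the nuclear receptor half-site AGGTCA, or their reverse complements. The windows are chr6:88724162-88724461 on the plus strand for Mgll (1 of its 2 windows), chr13:108214154-108214453 on the plus strand for Elovl7, chr11:120824498-120824797 on the minus strand for Fasn, chr11:100527951-100528250 on the minus strand for Acly, and chr17:71183282-71183581 on the plus strand for Lpin2 (1 of its 3 windows).
Mgll: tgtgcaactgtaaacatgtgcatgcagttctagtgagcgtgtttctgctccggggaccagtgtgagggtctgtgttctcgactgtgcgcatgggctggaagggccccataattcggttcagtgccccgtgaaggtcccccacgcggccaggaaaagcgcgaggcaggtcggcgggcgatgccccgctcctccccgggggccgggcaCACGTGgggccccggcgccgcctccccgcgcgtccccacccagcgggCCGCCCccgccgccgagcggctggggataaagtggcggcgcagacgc
Elovl7: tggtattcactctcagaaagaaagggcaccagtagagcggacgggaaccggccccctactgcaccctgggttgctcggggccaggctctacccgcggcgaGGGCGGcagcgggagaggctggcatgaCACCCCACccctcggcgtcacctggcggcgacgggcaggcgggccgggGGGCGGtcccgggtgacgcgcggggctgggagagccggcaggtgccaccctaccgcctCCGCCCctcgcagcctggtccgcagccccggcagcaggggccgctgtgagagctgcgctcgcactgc
Fasn: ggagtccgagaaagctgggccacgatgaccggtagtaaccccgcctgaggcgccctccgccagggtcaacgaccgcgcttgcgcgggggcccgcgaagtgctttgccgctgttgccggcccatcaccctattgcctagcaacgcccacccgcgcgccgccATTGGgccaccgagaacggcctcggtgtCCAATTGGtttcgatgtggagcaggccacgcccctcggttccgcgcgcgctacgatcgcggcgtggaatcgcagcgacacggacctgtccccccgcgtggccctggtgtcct
Acly: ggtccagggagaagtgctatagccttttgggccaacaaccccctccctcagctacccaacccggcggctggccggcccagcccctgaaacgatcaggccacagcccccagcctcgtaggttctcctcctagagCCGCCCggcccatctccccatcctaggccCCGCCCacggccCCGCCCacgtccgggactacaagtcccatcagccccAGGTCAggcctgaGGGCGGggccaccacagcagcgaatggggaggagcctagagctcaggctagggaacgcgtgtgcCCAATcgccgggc
Lpin2: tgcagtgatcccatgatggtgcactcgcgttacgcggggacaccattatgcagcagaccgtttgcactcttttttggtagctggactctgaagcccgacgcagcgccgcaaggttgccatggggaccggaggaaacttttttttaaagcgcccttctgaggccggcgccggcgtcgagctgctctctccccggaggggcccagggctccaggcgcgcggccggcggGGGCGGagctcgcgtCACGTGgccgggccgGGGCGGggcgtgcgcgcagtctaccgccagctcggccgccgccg

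The Mgll window holds an E-box 44 to 39 bases before the start and a GC box in reverse complement 3 to 8 bases after it. Elovl7 carries the sterol regulatory element core 123 to 116 bases before its start together with 3 GC boxes. Fasn has 3 CCAAT boxes, 2 of which overlap on opposite strands between 62 and 55 bases before the start. The Acly window holds 4 GC boxes, 1 nuclear receptor half-site and 1 CCAAT box, and that of Lpin2 an E-box 9 to 4 bases before the start between 2 GC boxes. The gene set was set beside 32851 RefSeq windows of this length, which did not cover every chromosome. Over the 37 windows of the gene set, the sterol element core was found in 8.11% (Acsl1, Elovl7 and Gpam) against 2.87% of those 32851. The E-box was in 10.8% against 7.15%, the CCAAT box in 48.6% against 37.4%, the GC box in 62.2% against 35.7%, and the half-site in 21.6% against 16.3%. A match is a description of the letters and says nothing about binding.

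Most of the gene set was higher in GM-CSF than in M-CSF culture. Of the 33 genes, 23 (69.7%) were higher and 6 (18.2%) lower in GM-CSF by limma with Benjamini-Hochberg adjustment at 0.05, against 29.8% higher and 27.3% lower among all 13642 genes. The median log2 fold was 0.87 for the 33 genes and 0.02 for all genes. The 33 genes were chosen with earlier results of these data known. The comparison with all genes therefore describes this list and is not an independent test of it. The largest rises were in Mgll, Elovl7, Scd2, Scd1, Fabp4 and Fabp5, each over 10-fold in both genotypes, and the largest falls in Lpin2, Fads3 and Me1. The genes that did not pass were Acacb, Elovl6, Gpam and Lipa. Taken as single pairs of libraries, 15 of the 33 were at least 2-fold higher in GM-CSF in db/+ marrow and 15 in db/db marrow, where 12.0% and 11.3% of all genes were. In the other direction 5 were at least 2-fold lower in db/+ and 4 in db/db, where 15.7% and 15.8% of all genes were. The gene set was also better read, with a median mean level of 2135 normalized counts against 576 for all genes kept. At a level minimum of 200, limma called 23 higher and 4 lower of 30 genes left in the set. Of 10175 genes in all, it called 3690 higher and 2659 lower there.

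**Figure D2:**
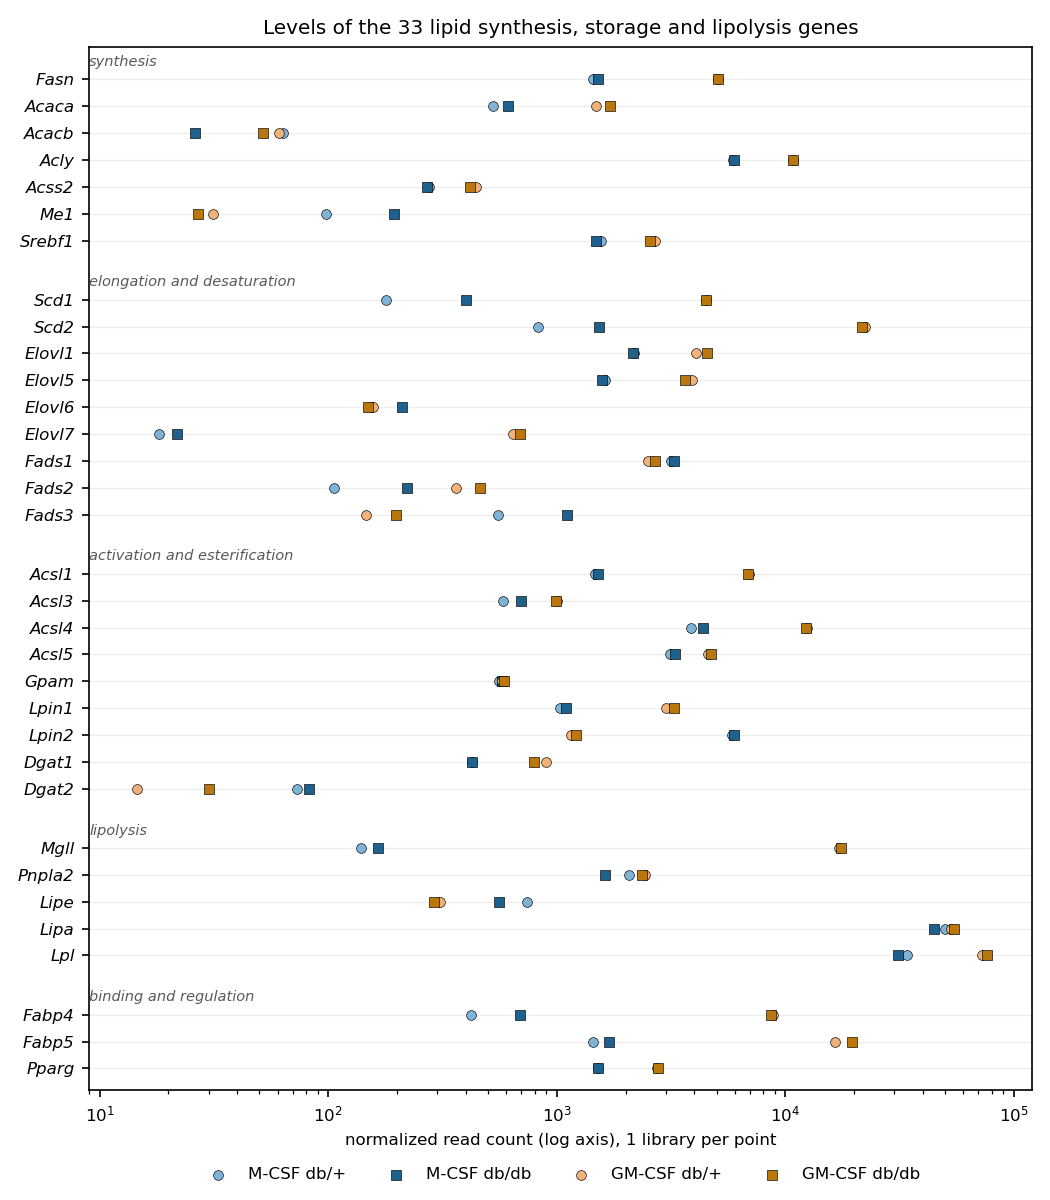
Normalized read count of each of the 33 genes on a log axis, grouped by step, with 1 point for each of the 4 libraries. Mgll, Elovl7, Scd1, Scd2, Fabp4 and Fabp5 show the widest gaps between the M-CSF (blue) and GM-CSF (orange) libraries, and Lpin2, Fads3, Me1, Lipe and Dgat2 lie lower in GM-CSF.

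The limma estimate is the mean difference between culture types on log2(normalized count + 5) with genotype as the second factor, from 4 libraries with 1 residual degree of freedom and a prior of 12.87. The spread behind its standard errors is borrowed in large part from all genes. The 1 residual degree of freedom is the departure of the 4 libraries from additive effects of culture type and genotype. The p-values therefore measure no spread between replicate libraries. The stromal and neutrophil lists were lower in both GM-CSF libraries, as given above, and their part in these differences was not tested. When each library was instead scaled to the same sum, the median log2 fold of all genes went from 0.02 to -0.31 and the split of calls from 4062 higher and 3725 lower to 2291 higher and 6353 lower, while the 33 genes gave 20 higher and 8 lower. A fit that kept every row, with 1435 genes at 0 in all libraries, called 0 of the 33 genes and 0 of all genes, with 27 of the 33 and 8129 of all genes at an unadjusted p under 0.05. Its prior had 0.838 degrees of freedom. With only those 1435 rows left out, an alternative added after seeing the data, 29 were called again, as they were by edgeR, and DESeq2 called 27.

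**Figure D3:**
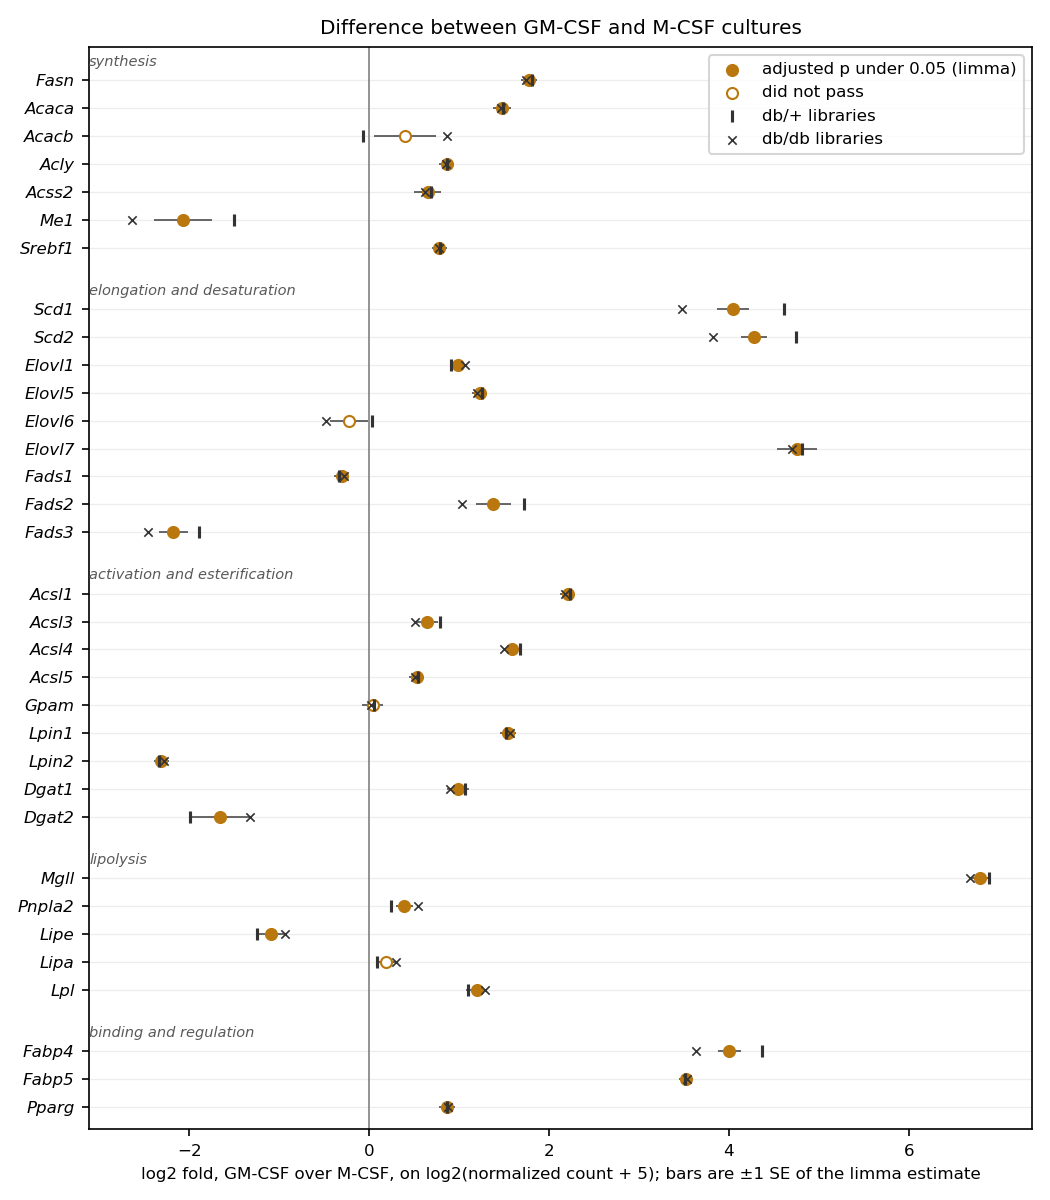
Log2 fold of GM-CSF over M-CSF for the 33 genes; circles are limma estimates with bars of 1 standard error, filled where the adjusted p was under 0.05, and the dashes and crosses are the folds in db/+ and in db/db alone. The folds of the 2 genotypes lie close together for Fasn, Acly, Lpin2 and Fabp5 and apart for Scd1, Scd2, Me1 and Fabp4.

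In the synthesis step 5 of 7 genes rose, 1 fell and 1 did not pass. Among all genes 29.8% were called higher and 27.3% lower, and no step was tested against those shares. Fasn, which encodes fatty acid synthase and whose promoter is printed above, stood at 1444 and 1507 normalized counts in the M-CSF db/+ and db/db libraries and at 5065 and 5069 in the corresponding GM-CSF libraries. Both GM-CSF values were over 3 times both M-CSF values, and the log2 fold was 1.78 ± 0.08 (SE; adjusted p = 1.92e-10). Acaca, the cytosolic acetyl-CoA carboxylase that commits acetyl-CoA to fat synthesis, was at 528 and 614 in M-CSF and at 1492 and 1707 in GM-CSF, a log2 fold of 1.48 ± 0.10 (adjusted p = 1.40e-08). Acaca shares 52.6% of its 50-base words with the annotated copy Gm5182, so its level is uncertain. Acly, the enzyme that splits citrate into acetyl-CoA, had the most reads of this step, with 5902 and 5990.5 in M-CSF and 10764 and 10829 in GM-CSF. Its log2 fold was 0.86 ± 0.08 (adjusted p = 5.04e-07).

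Srebf1 encodes the transcription factor SREBP-1, which drives lipogenic genes. Its level was 1565 and 1484 in M-CSF and 2697 and 2551 in GM-CSF, and the log2 fold was 0.78 ± 0.09 (adjusted p = 2.47e-06). Acss2, which makes acetyl-CoA from acetate, stood at 275 and 269 in M-CSF and at 444 and 416 in GM-CSF. Its log2 fold of 0.65 ± 0.15 (adjusted p = 0.00181) was no longer called without the GM-CSF db/+ library, where it was 0.60, with libraries scaled to the same sum, where it was 0.31, or by DESeq2.

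Me1 went the other way. This gene for cytosolic malic enzyme, a source of NADPH for fat synthesis, stood at 98.0 and 193 in M-CSF and at 31.4 and 26.9 in GM-CSF, and fell by 2.07 ± 0.33 on the log2 scale (adjusted p = 7.42e-05). It shares 32.8% of its 50-base words with annotated copies. Acacb, the mitochondrial-side acetyl-CoA carboxylase that restrains fat oxidation, was at 63.7 and 26.1 in M-CSF and at 60.6 and 51.6 in GM-CSF. The M-CSF db/db library alone was low, and the log2 fold of 0.40 ± 0.34 did not pass (adjusted p = 0.344). Without the M-CSF db/db library that fold was -0.17, and without M-CSF db/+ it was 0.97 and was called. The ratio of Acaca to Acacb per kilobase of exon was 7.66 in M-CSF db/+, 21.7 in M-CSF db/db, 22.7 in GM-CSF db/+ and 30.6 in GM-CSF db/db.

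Among the 9 elongases and desaturases, 6 rose, 2 fell and 1 did not pass, where 29.8% of all genes rose and 27.3% fell. Scd1 and Scd2 encode stearoyl-CoA desaturases, which place the first double bond in saturated chains. Scd1 stood at 179 and 399 normalized counts in M-CSF db/+ and db/db and at 4494 and 4504 in GM-CSF. Scd2 stood at 827 and 1534 in M-CSF and at 22261 and 21728 in GM-CSF. For both genes the GM-CSF libraries were nearly level, and the M-CSF db/db library was above M-CSF db/+. The log2 folds were 4.05 ± 0.18 for Scd1 (adjusted p = 1.01e-10) and 4.28 ± 0.15 for Scd2 (adjusted p = 6.07e-12). In db/+ marrow alone Scd1 was 25.1-fold higher in GM-CSF (95% counting interval 20.4 to 31.3), and in db/db marrow 11.3-fold (9.85 to 13.0). The same ratios for Scd2 were 26.9 (24.5 to 29.8) and 14.2 (13.2 to 15.2). Whether the culture effect differs between genotypes could not be tested with 1 library per group.

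Per kilobase of exon, Scd2 exceeded Scd1 in every library, by 4.10, 3.41, 4.39 and 4.27 times in M-CSF db/+, M-CSF db/db, GM-CSF db/+ and GM-CSF db/db. Their transcripts share 4.66% (Scd1) and 4.01% (Scd2) of 50-base words with other genes, among them each other, Scd3 and Scd4. Of these, Scd3 and Scd4 had far fewer reads. Scd3 was at 3.8 and 1.7 in M-CSF and at 52.7 and 47.3 in GM-CSF, and Scd4 at 6.7 and 12.2 and then at 77.4 and 83.9. Whether reads of the shared words were counted for the wrong Scd gene was not tested.

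Elovl7, an elongase of long saturated chains, was near the level minimum in M-CSF, at 18.1 and 21.8, and reached 644 and 692 in GM-CSF. Its log2 fold was 4.76 ± 0.22 (adjusted p = 1.72e-10), and the ratio was 35.6 (18.1 to 71.3) in db/+ and 31.7 (18.7 to 64.8) in db/db marrow, wide intervals set by the few M-CSF reads. Elovl5, which lengthens polyunsaturated chains, went from 1630.3 and 1583 to 3909 and 3634. Elovl1, which makes very long saturated chains, went from 2173 and 2152 to 4078 and 4519. Their log2 folds were 1.23 ± 0.09 (adjusted p = 1.37e-08) and 0.99 ± 0.09 (adjusted p = 1.68e-07). Elovl6, the elongase that takes palmitate to stearate, did not follow: it stood at 153 and 210.0 in M-CSF and at 157 and 149.5 in GM-CSF, and its log2 fold of -0.22 ± 0.21 did not pass (adjusted p = 0.396). Without the M-CSF db/db library that fold was 0.000963, and with equal sums it was -0.55 and was called.

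The 3 Fads desaturases differed in direction. Fads2, the delta-6 desaturase that opens the path to arachidonic acid, stood at 106.5 and 221 in M-CSF and at 363 and 459 in GM-CSF, with a log2 fold of 1.38 ± 0.19 (adjusted p = 2.32e-05). That call was lost without the M-CSF db/+ library, where the fold was 0.87, and without GM-CSF db/db, where it was 1.21. Fads1, the delta-5 desaturase of the same path, stood at 3173 and 3246 in M-CSF and at 2512 and 2679 in GM-CSF. It fell by 0.31 ± 0.08 on the log2 scale (adjusted p = 0.00629), and was not called without GM-CSF db/+ (-0.26), without GM-CSF db/db (-0.35), or without a variance trend.

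Fads3, the last gene of this cluster, stood at 555.5 and 1114 in M-CSF and at 146 and 198 in GM-CSF, and fell by 2.18 ± 0.16 on the log2 scale (adjusted p = 3.24e-08). Every GM-CSF value of Fads3 was below every M-CSF value. Per kilobase of exon the ratio of Fads2 to Fads3 was 0.224 and 0.233 in the M-CSF libraries and 2.92 and 2.72 in the GM-CSF libraries, so the order of the pair was opposite in the 2 culture types.

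Of the 9 genes of activation and esterification, 6 rose, 2 fell and 1 did not pass. Of all genes 29.8% rose and 27.3% fell. All 4 acyl-CoA synthetases, which attach coenzyme A to free fatty acids, were higher in GM-CSF. Acsl1 stood at 1474 and 1513.5 in M-CSF and at 6947 and 6892 in GM-CSF, a log2 fold of 2.21 ± 0.08 (adjusted p = 1.49e-11). Acsl4, which prefers arachidonic acid, stood at 3859 and 4358.5 in M-CSF and at 12377 and 12375 in GM-CSF, a log2 fold of 1.59 ± 0.09 (adjusted p = 7.43e-10). Acsl3 and Acsl5 moved less. Acsl3, linked to lipid droplet growth, went from 580.2 and 699 to 1004 and 994, a log2 fold of 0.65 ± 0.12 (adjusted p = 2.40e-04). Acsl5 went from 3140 and 3298 to 4570.4 and 4705.5, a log2 fold of 0.53 ± 0.08 (adjusted p = 7.06e-05), which was 0.19 and not called with libraries scaled to the same sum.

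Gpam, the mitochondrial acyltransferase that starts glycerolipid synthesis, stood at 557 and 577 in M-CSF and at 578 and 586 in GM-CSF. The 4 values lay within 557 to 586, and the log2 fold of 0.04 ± 0.12 did not pass (adjusted p = 0.815). Its sign was negative by edgeR (-0.00726) and DESeq2 (-0.0113), and with equal sums the fold was -0.30 and was called.

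The lipins, phosphatidate phosphatases that make diacylglycerol, moved in opposite directions. Lpin1 stood at 1037 and 1102 in M-CSF and at 2992 and 3262 in GM-CSF. Lpin2 stood at 5868 and 5940.0 in M-CSF and at 1159 and 1215 in GM-CSF. Lpin1 rose by 1.54 ± 0.09 (adjusted p = 1.63e-09) and Lpin2 fell by 2.31 ± 0.08 on the log2 scale (adjusted p = 1.11e-11). Per kilobase of exon, Lpin1 was 0.179 and 0.188 times Lpin2 in the M-CSF libraries and 2.61 and 2.72 times Lpin2 in the GM-CSF libraries. The remaining lipin, Lpin3, which is not one of the 33 genes, stood at 44.7 and 77.5 in M-CSF and at 0 in both GM-CSF libraries. Against 3 read pairs in each GM-CSF library, it was lower by a bound of at least 6.64-fold in db/+ marrow and at least 12.0-fold in db/db.

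Both diacylglycerol acyltransferases catalyse the last step of triglyceride synthesis. Dgat1 stood at 426 and 425 in M-CSF and at 899.5 and 798 in GM-CSF, a log2 fold of 0.98 ± 0.12 (adjusted p = 7.22e-06). Dgat2 was low throughout, at 73.2 and 82.8 in M-CSF and at 14.6 and 30.1 in GM-CSF, and fell by 1.66 ± 0.35 on the log2 scale (adjusted p = 0.000935). The Dgat2 call was lost without M-CSF db/+ (-1.74) and without M-CSF db/db (-1.58). Dgat1 exceeded Dgat2 per kilobase of exon by 6.97 and 6.15 times in M-CSF and by 73.8 and 31.8 times in GM-CSF. The GM-CSF figures rest on 13 and 28 reads of Dgat2. Its ratio of GM-CSF to M-CSF was 0.199 (95% counting interval 0.0643 to 0.444) in db/+ and 0.364 (0.183 to 0.664) in db/db marrow.

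Lipolysis held the largest single difference. Of its 5 genes 3 rose, 1 fell and 1 did not pass, where 29.8% of all genes rose and 27.3% fell. Mgll encodes monoacylglycerol lipase, which releases the last fatty acid from glycerol and also breaks down the endocannabinoid 2-arachidonoylglycerol. It stood at 139 and 165.5 normalized counts in M-CSF db/+ and db/db and at 17116 and 17552 in GM-CSF. The log2 fold was 6.79 ± 0.09 (adjusted p = 2.20e-15), the ratio 123 (97.9 to 157) in db/+ and 106 (86.6 to 131) in db/db marrow. Among the 33 genes ordered by level per kilobase of exon, Mgll went from rank 29 in M-CSF db/+ to rank 6 in GM-CSF db/+.

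Pnpla2 encodes adipose triglyceride lipase, the enzyme of the first step. It stood at 2063 and 1623 in M-CSF and at 2436 and 2366 in GM-CSF. Its log2 fold of 0.39 ± 0.10 (adjusted p = 0.00299) was not called without GM-CSF db/+ (0.37), without GM-CSF db/db (0.41), with equal sums (0.05), without a variance trend, or by DESeq2. Lipe, the hormone-sensitive lipase of the second step, stood at 742 and 557 in M-CSF and at 308 and 289 in GM-CSF, and fell by 1.09 ± 0.14 on the log2 scale (adjusted p = 1.15e-05). Exons of 4732471J01Rik overlap 15.7% of the Lipe exons on the other strand. That gene stood at 71.3, 59.2, 33.7 and 23.7 in the same order of libraries, and since the labels do not say whether strand was kept, reads in the overlap cannot be assigned. Taken per kilobase of exon, Mgll was 0.213 and 0.338 times Lipe in M-CSF and 63.1 and 69.0 times Lipe in GM-CSF.

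Lpl encodes lipoprotein lipase, which frees fatty acids from circulating triglyceride and is secreted by macrophages. It stood at 33897 and 31214 in M-CSF and at 72708 and 76195 in GM-CSF, a log2 fold of 1.19 ± 0.12 (adjusted p = 5.39e-07). Lipa encodes lysosomal acid lipase, which digests the lipid of engulfed lipoproteins and cells. It stood at 49850.1 and 44676.5 in M-CSF and at 52882 and 54952 in GM-CSF. Its log2 fold of 0.19 ± 0.12 did not pass (adjusted p = 0.181). It was called at 0.27 without M-CSF db/+ and was -0.15 with equal sums. These were among the most abundant genes of the set: per kilobase of exon, Lipa, Lpl and Fabp5 took the top 3 ranks in all 4 libraries, with Lipa first in every library except GM-CSF db/db, where Fabp5 was.

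All 3 genes of binding and regulation rose, where 29.8% of all genes did. Fabp4 and Fabp5 encode fatty acid binding proteins of fat cells and macrophages. Fabp4 stood at 422 and 687.5 in M-CSF and at 8828 and 8627 in GM-CSF, a log2 fold of 4.005 ± 0.13 (adjusted p = 3.23e-12). Fabp5 stood at 1437 and 1693 in M-CSF and at 16473 and 19663 in GM-CSF, a log2 fold of 3.52 ± 0.08 (adjusted p = 8.49e-14). Fabp5 shares 21.1% of its 50-base words with annotated copies such as Fabp5l2, so its level is uncertain. Fabp5 exceeded Fabp4 per kilobase of exon by 3.09 and 2.24 times in M-CSF and by 1.69 and 2.07 times in GM-CSF. Pparg encodes the nuclear receptor PPAR-gamma, for which Fabp4 and Lpl are textbook targets. It stood at 1508 and 1511 in M-CSF and at 2743 and 2780 in GM-CSF, a log2 fold of 0.87 ± 0.09 (adjusted p = 7.71e-07).

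The rest of the lipid pathway was read from lists of 111 other genes, of which 103 were in the files and 82 passed the level minimum. Among these 82, 38 were higher and 13 lower in GM-CSF by limma at an adjusted p under 0.05, with a median log2 fold of 0.20. These are 46.3% and 15.9% of the 82, against 29.8% and 27.3% of all genes. These lists were also chosen with earlier results of these data known, so the shares are no independent test. With libraries scaled to the same sum the split was 22 higher and 24 lower. Of 17 regulators kept, 8 rose and 1 fell. Of 16 further genes of synthesis, elongation and desaturation, 5 rose and 2 fell, a share of rises near that of all genes. Of 16 in activation and esterification, 8 rose and 5 fell. Among 9 lipid droplet genes 6 rose and 1 fell, among 12 lipolysis genes 5 rose and 2 fell, and among 12 of binding and uptake 6 rose and 2 fell.

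**Figure D4:**
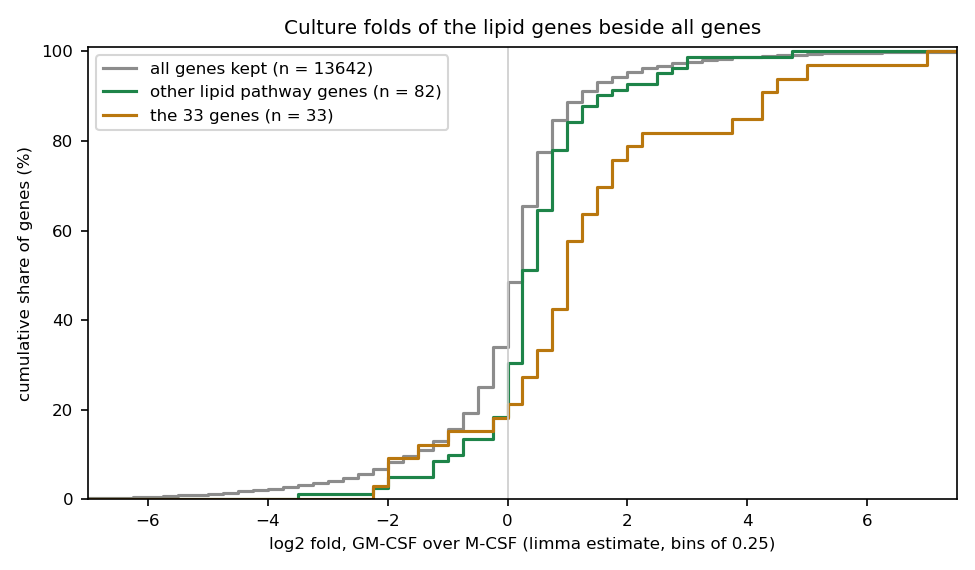
Cumulative share of genes (percent) by log2 fold of GM-CSF over M-CSF, in bins of 0.25, for all 13642 genes kept, the 82 other lipid pathway genes and the 33 genes. The curve of the 33 genes lies to the right of the others above 0: 42.4% of them had a log2 fold above 1, against 15.9% of the other pathway genes and 11.4% of all genes. The 33 genes and the pathway lists were chosen with earlier results of these data known.

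The 10 pathway genes with the largest differences that passed were these. Olr1, the receptor LOX-1 for oxidized LDL, was at 21.9 and 35.7 in M-CSF and at 839 and 875 in GM-CSF, a log2 fold of 4.70. Agpat9, the endoplasmic reticulum glycerol-3-phosphate acyltransferase, was at 15.2 and 20.9 and then at 146.9 and 201, a log2 fold of 2.95. Cebpb, a transcription factor of fat and myeloid cells, was at 1273 and 1185 and then at 7152 and 6785, a log2 fold of 2.50. Hilpda, an inhibitor of adipose triglyceride lipase on lipid droplets, was at 110.3 and 132 and then at 601 and 649, a log2 fold of 2.32. Scd3 and Scd4, given above, had log2 folds of 2.84 and 2.59, with the words shared with Scd1 and Scd2 as a limit. Scd3 had under 3 read pairs in each M-CSF library, and its ratio of GM-CSF to M-CSF was 13.9 (3.51 to 124) in db/+ and 27.8 (4.39 to 1121) in db/db marrow. The lower ones were Lpin3, given above, Plin4, Elovl4 and Mogat2.

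Plin4, a lipid droplet coat protein, was at 125.5 and 302 in M-CSF and at 40.4 and 32.3 in GM-CSF, and fell by 2.28 on the log2 scale. Elovl4, an elongase of very long chains, was at 19.0 and 29.6 and then at 0 and 3.2. It was at least 2.82-fold lower in db/+ marrow, against 3 read pairs, and the ratio in db/db was 0.108 (0.0163 to 0.612). Its limma log2 fold was -2.17, and -1.81 and not called without the GM-CSF db/+ library. Mogat2, a monoacylglycerol acyltransferase, was at 20.0 and 45.3 and then at 4.5 and 2.2, which gave ratios of 0.225 (0.0251 to 1.11) in db/+ and 0.0486 (0.00116 to 0.289) in db/db. The log2 fold was -2.10, and -1.90 and not called without GM-CSF db/db. Values of 4.5 and less are under 3 read pairs, which are worth 5.71, 5.23, 6.73 and 6.45 normalized counts in M-CSF db/+, M-CSF db/db, GM-CSF db/+ and GM-CSF db/db. DESeq2 did not call Lpin3 (adjusted p = 0.0897), with the same sign, while its adjusted p ranged from 9.58e-06 to 0.0897 over all alternatives.

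Between genotypes, the clearest differences among the 33 genes lay in M-CSF culture. There Scd1, Fads2, Fads3, Me1, Scd2 and Fabp4 were higher in the db/db than in the db/+ library, and Acacb, Lipe and Pnpla2 lower. On log2(normalized count + 5), 0 of the 33 were at least 2-fold apart in either direction in GM-CSF culture. Among all genes 0.586% passed that fold upward and 0.476% downward in db/db. Without the added 5, the GM-CSF ratio of Dgat2 was 2.06 (95% counting interval 0.808 to 7.11), from 13 reads in db/+ and 28 in db/db. In M-CSF culture, on the same scale, 2 were at least 2-fold higher (Scd1 and Fads2) and 1 lower (Acacb), where 5.05% and 0.777% of all genes were. With 1 library on each side these are differences between libraries, and no test of genotype within a culture type could be made. Each library also enters 1 culture comparison and 1 genotype comparison, so these share libraries and are not independent.

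**Figure D5:**
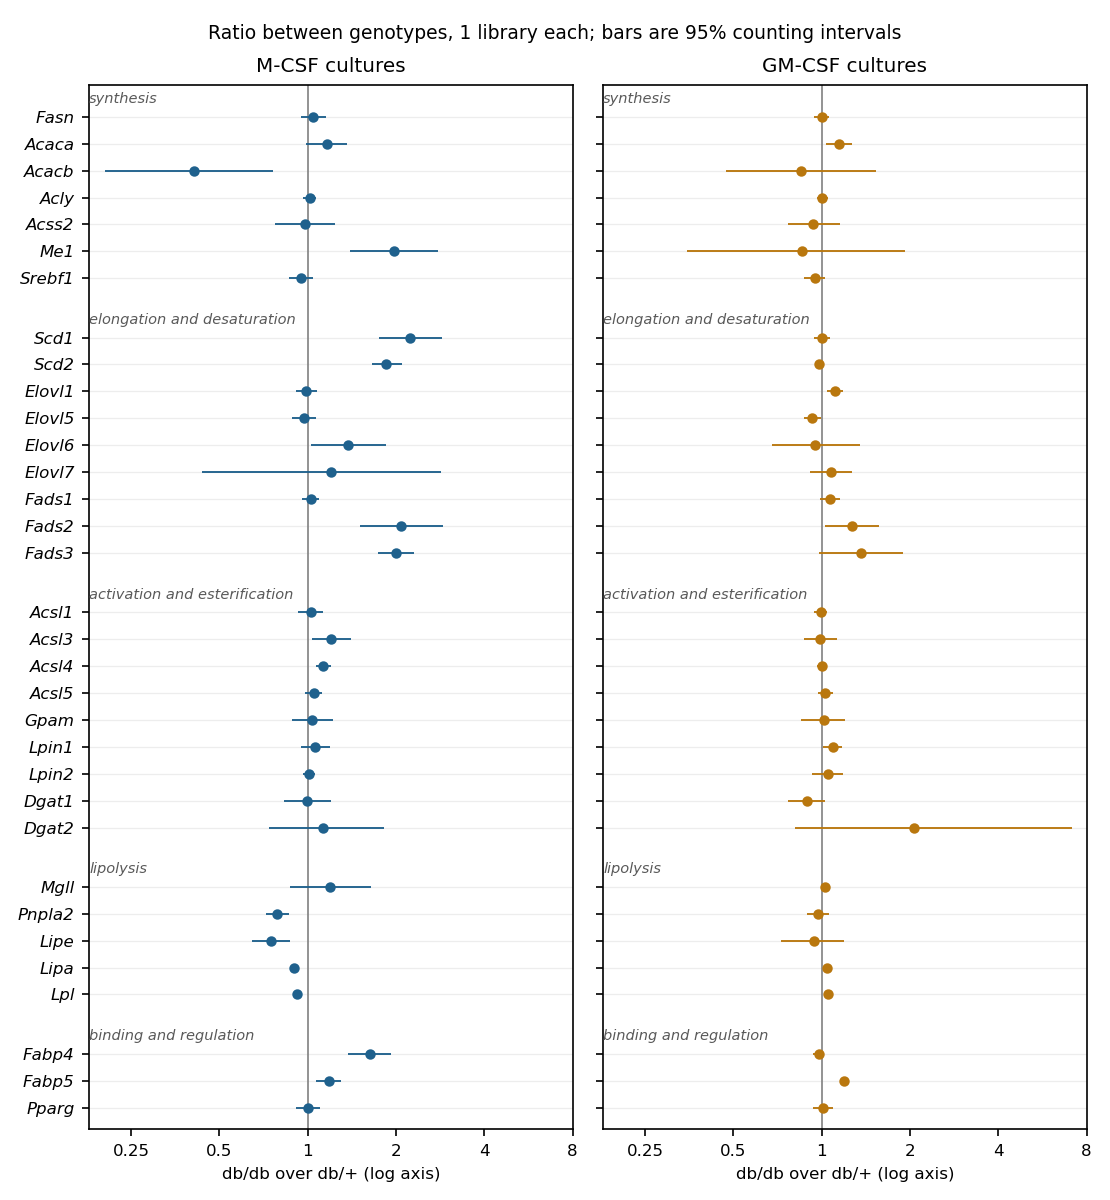
Ratio of db/db to db/+ for the 33 genes on a log axis, in M-CSF (left) and GM-CSF (right) culture, with bars of the exact 95% counting interval. In M-CSF the ratios of Scd1, Scd2, Fads2, Fads3, Me1 and Fabp4 lie between 1.63 and 2.23, and that of Acacb at 0.410; in GM-CSF most ratios lie near 1.

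Scd1 went from 179 in M-CSF db/+ to 399 in M-CSF db/db, a ratio of 2.23 with a 95% counting interval of 1.75 to 2.87. The interval is the exact conditional binomial interval on read pairs and covers counting error only. The ratio of Scd2 was 1.86 (1.65 to 2.09). In GM-CSF culture the same ratios were 1.002 (0.942 to 1.07) for Scd1 and 0.976 (0.949 to 1.004) for Scd2. Fads2 had a ratio of 2.08 (1.51 to 2.90) in M-CSF and 1.26 (1.03 to 1.56) in GM-CSF. For Fads3 the ratio was 2.00 (1.74 to 2.31) in M-CSF, just under 2-fold on the log2(normalized count + 5) scale, and 1.36 (0.978 to 1.89) in GM-CSF.

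Me1 had a ratio of 1.97 (1.39 to 2.77) in M-CSF and 0.857 (0.347 to 1.92) in GM-CSF. Fabp4 had 1.63 (1.38 to 1.93) and 0.977 (0.935 to 1.02), and Elovl6 1.37 (1.03 to 1.85) and 0.952 (0.679 to 1.36). On the lower side in M-CSF were Acacb at 0.410 (0.205 to 0.762), Lipe at 0.751 (0.646 to 0.874) and Pnpla2 at 0.787 (0.721 to 0.861). The lipases Lipe and Pnpla2 had ratios of 0.938 (0.729 to 1.19) and 0.971 (0.893 to 1.06) in GM-CSF. Fabp5 was higher in db/db in both culture types, with ratios of 1.18 (1.07 to 1.30) and 1.19 (1.16 to 1.23).

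In M-CSF culture the counting interval lay above 1 for 10 of the 33 genes, where it did for 19.8% of all genes, and below 1 for 5, where it did for 14.3%. In GM-CSF culture it lay above 1 for 7 (Acaca, Elovl1, Fads2, Lpin1, Lipa, Lpl and Fabp5) and below 1 for Elovl5 alone, where it did for 4.28% and 2.43% of all genes. The 33 genes had more reads than most, with a median mean level of 2135 normalized counts against 576 for all genes kept, and intervals narrow with reads. Fasn, Acly, Srebf1 and Pparg had intervals that held 1 in both culture types, with ratios from 0.946 to 1.04.

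The stromal list also differed between the M-CSF db/db and M-CSF db/+ libraries. Of its 12 genes 9 were at least 2-fold higher in the M-CSF db/db library than in M-CSF db/+, with Col1a1 at 2273 and 5709 and Col1a2 at 8292 and 22962. In the GM-CSF libraries Col1a1 was at 6.7 and 3.2 and Col1a2 at 13.5 and 21.5. All 9 macrophage markers were lower in M-CSF db/db than in M-CSF db/+, with ratios from 0.728 (Cd68) to 0.992 (Emr1). The counting interval was below 1 for 7 of them, and 7 of 9 were higher in db/db in GM-CSF. Of the 7 neutrophil genes, 4 were higher and 3 lower in db/db in M-CSF, and 3 were higher and 4 lower in GM-CSF. S100a8 was higher in both, with ratios of 1.22 (1.13 to 1.31) and 1.22 (1.03 to 1.44). The adipocyte list was under 20 normalized counts for each gene. The part of the stromal, macrophage and neutrophil marker differences in the genotype ratios of the 33 genes was not tested.

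Over both culture types, limma called 0 of the 33 genes for genotype at an adjusted p under 0.05, and 1 of all 13642 genes (0.00733%). At an unadjusted p under 0.05 stood 6 of the 33 (Fads3, Fads2, Scd1, Fabp5, Scd2 and Fabp4), against 4.42% of all genes. The largest main effect was that of Fads3, a log2 fold of 0.71 ± 0.16 (adjusted p = 0.888), followed by Fads2 at 0.68 ± 0.19 (adjusted p = 0.888). All 6 main effects were upward in db/db. In GM-CSF culture alone the ratios of db/db to db/+ were 1.36 (Fads3), 1.26 (Fads2), 1.19 (Fabp5), 1.002 (Scd1), 0.977 (Fabp4) and 0.976 (Scd2). The count test of edgeR called 1 of the 33, Fads3, with a log2 fold of 0.77 and an adjusted p of 0.0342, against adjusted p-values of 0.138 to 1 for Fads3 under the other alternatives. It called 0.755% of all genes. DESeq2 called 0 of the 33, with 2 at an unadjusted p under 0.05. The additive fit averages over culture types, so a genotype difference in 1 culture type alone enters it partly as main effect and partly as spread. For Scd1 the log2 fold was 1.14 in M-CSF and 0.00327 in GM-CSF, and the main effect was 0.57 ± 0.18.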

How the data were processed

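Each of the 4 deposited files holds normalized read counts for 22700 gene rows, a signal that the authors made by dividing read counts by a library factor (TMM by the file names). The tools named in the submitters' processing notes are TopHat 1.2.0 and edgeR, and the builds mm8 and mm9, of which none is tied to a step. For the counting tool, the annotation and the strand setting, nothing is given in the sources used here.

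Whole reads were recovered by dividing by the value of 1 read (0.951, 0.871, 1.12 and 1.08 normalized counts in M-CSF db/+, M-CSF db/db, GM-CSF db/+ and GM-CSF db/db). With a tolerance of 0.1 read, 100% of low values in every library were whole. Among counts of 1 to 20, even ones made up 53.5%, 52.6%, 55.1% and 56.3% in the same order of libraries. This small excess does not settle whether both mates were counted. Counting intervals used read pairs, as though both mates had been counted. The design allowed for counts or normalized values; as the files hold the latter, the main test was limma 3.58.1 (R 4.3.3; lmFit, then eBayes with trend) on log2(normalized count + 5), with culture type and genotype as factors. Genes reaching 20 in at least 1 library entered it, and p-values are two-sided and Benjamini-Hochberg adjusted over all 13642. The test was checked on simulated counts with the same dispersion for every gene and no genotype effect. That setting is simpler than these data, so the check does not bear on single calls. edgeR 4.0.16 and DESeq2 1.42.0 on recovered reads, other pseudocounts, filters and scalings, and leaving out each library were the alternatives. Exact conditional binomial 95% intervals for pairs of libraries came from SciPy 1.17.1.

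The members and the lists of pathway and marker genes were chosen with earlier results of these data known. All 33 genes were accounted for by step; of the other pathway genes the 10 with the largest culture log2 fold among those passing limma were named, and of the marker lists the defining genes. Exon lengths, overlaps and shared 50-base words were taken from GENCODE M21, which is not the authors' annotation, and promoter sequences from RefSeq (GRCm38.p6).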

Additional observations from a re-analysis of the deposited data

Results flagged for a closer look

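Lipa and Lpl, the lysosomal and the secreted lipase, were each lower in db/db than in db/+ in M-CSF culture and higher in GM-CSF culture. For Lipa the ratio of db/db to db/+ was 0.896 (95% counting interval 0.881 to 0.912) in M-CSF and 1.04 (1.02 to 1.06) in GM-CSF. For Lpl it was 0.921 (0.902 to 0.940) in M-CSF and 1.05 (1.03 to 1.06) in GM-CSF. Each ratio rests on 1 library per genotype and on counting error alone, and the difference between culture types was not tested. Of the 9 macrophage markers, all were lower in db/db than in db/+ in M-CSF, with the counting interval below 1 for 7. Their ratios there ran from 0.728 (Cd68) to 0.992 (Emr1). In GM-CSF 7 of the 9 were higher, with the interval above 1 for 3. Csf1r (0.987) and Lyz2 (0.992) were lower there, and the highest ratio was 1.13 (Fcgr1). The part of the macrophage markers in the ratios of Lipa and Lpl was not tested.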

How the results depend on the processing

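With 1 library per group, every pairwise value lacks a replicate check, and 1 residual degree of freedom leaves the limma calls resting on a prior shared over genes. No paired analysis was possible because each group has 1 library and the labels carry no replicate numbers; the main fit already compares culture types within genotype. With no filter on low values limma called 0 of the 33 genes, 0 of the other pathway genes and 0 of all genes for culture type, and 0 of all genes for genotype; leaving out just the rows at 0 in all libraries, which was chosen after seeing the data, gave 29, 50 and 8124 for culture type. Leaving out 1 library at a time, with culture type as the only factor, gave 26 to 29 of the 33 genes, 36 to 53 of the pathway genes and 5009 to 7181 of all genes, with 5009 and 5026 when a GM-CSF library was left out. The lone library of an arm is then assumed to vary like the other pair. For genotype, edgeR called 1 of the 33 genes. For all genes the genotype count was 2 at a pseudocount of 1, 0 at a pseudocount of 20, 3 at a level minimum of 200, 0 with libraries scaled to the same sum, 2 with the median ratio, 0 without a variance trend, 0 with genotype as the only factor, 103 by edgeR and 2 by DESeq2. The count of the 33 genes at least 2-fold apart between genotypes in M-CSF was 1 at a pseudocount of 20. Signs that turned belonged to genes that did not pass: Acacb (-0.17) and Elovl6 (0.000963) without the M-CSF db/db library, Gpam (-0.30) and Lipa (-0.15) with libraries scaled to the same sum, and Gpam by edgeR (-0.00726) and DESeq2 (-0.0113). The cause of these changes was not tested, except that the rows at 0 in all libraries took the prior from 11.74 degrees of freedom, with those rows left out, to 0.838 in the unfiltered fit. Low reads limit Dgat2, Elovl7 in M-CSF, Acacb and Me1, whose intervals are the widest.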
